A study of Mus musculus with 50 samples.

Results

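The genes described here are 47 genes of the G1/S transition and of DNA replication, a list chosen by name for what its members do. All 47 were found among the 19455 genes of the deposited table. They were measured by 3′ end sequencing of polyadenylated RNA in 50 libraries of KH2, a mouse embryonic stem cell line of C57BL/6 x 129/Sv background. Triple_KO cells carry a knockout of Ythdf1, Ythdf2 and Ythdf3 together. Ythdf1_KO, Ythdf2_KO and Ythdf3_KO cells carry a knockout of 1 of these readers of N6-methyladenosine, a base modification of mRNA, and WT cells carry none. All 5 genotypes were grown in medium with serum and leukemia inhibitory factor, and 48 h after plating on gelatin they received 5 µM actinomycin D, which blocks transcription. Cells were taken at 0, 4 and 8 h, with 4, 2 and 4 libraries per genotype. These came from replicates A and B, each sequenced as 2 duplicate libraries at 0 h and 8 h and as 1 library at 4 h. The edited part of each gene, the number of clones and whether A and B were separate cultures are not given in the sources used here, so p-values measure a spread between A and B that may be technical.

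A replication origin is licensed in G1, when the origin recognition complex, Cdc6 and Cdt1 load the Mcm2-7 helicase ring onto DNA, and geminin (Gmnn) blocks Cdt1 afterwards. At the start of S phase cyclin E with Cdk2 helps to fire origins, Cdc45 and the GINS complex join the ring to make the active helicase, and DNA polymerases copy both strands behind it with the PCNA clamp. Many of these genes are transcribed under the E2F factors, which cyclin D with Cdk4 releases from the retinoblastoma proteins. Mouse embryonic stem cells are known for a short G1 phase, with a large share of cells in S phase.

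Because many of the members are known as E2F target genes, the promoters of all members were searched for the letters TTTCCCGC, TTTGGCGC, TTTCGCGC and TTTGCCGC on both strands. The RefSeq promoter table of GRCm38.p6 (250 bases before to 50 after each start) matched 36 of the 47 members. The letters stood in 13 of these 36 members (36.1%), in 387 of 7232 matched genes that were tested over time (5.35%) and in 704 of all 27025 genes of the promoter table (2.6%). The search was chosen with earlier results known, and a match is a description, not a site. The windows below are those of Cdt1, Orc1 and Rfc3, the members with the largest falls over 8 h in Triple_KO and WT, and of Lig1 and Mcm5, whose changes were smaller, with the letters of 1 match per window in capitals. A second match overlaps that one in Mcm5, and another follows it in lower case in the window of Rfc3. In GRCm38.p6 the windows lie at chr8:122568035-122568064 (+ strand) for Cdt1, chr4:108579416-108579445 (+ strand) for Orc1, chr5:151651200-151651229 (- strand) for Rfc3, chr7:13278841-13278870 (+ strand) for Lig1 and chr8:75109345-75109374 (+ strand) for Mcm5.
Cdt1: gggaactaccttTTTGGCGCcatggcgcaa
Orc1: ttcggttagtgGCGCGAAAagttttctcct
Rfc3: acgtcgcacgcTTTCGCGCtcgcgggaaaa
Lig1: cgccaaagtgcGCGCGAAAtctgtgtggcg
Mcm5: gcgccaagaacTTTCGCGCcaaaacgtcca

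The library totals lay between 796921 and 2341410 reads, with medians of 1764055 reads at 0 h, 1293510 at 4 h and 1167310 at 8 h. Values are in FPM, reads of a gene scaled to a fixed number of reads per library and not per base of transcript, so that 1 read is worth 0.427 to 1.25 FPM. The listed genes held 44.3%, 45.1% and 41.1% of the reads of Triple_KO libraries at 0, 4 and 8 h, and 43.3%, 40.3% and 33.2% of those of WT libraries. Ythdf1 at 0 h averaged 56.9 ± 5.9 FPM in Ythdf1_KO and 57.2 ± 8.1 FPM in WT (SD, n = 4 libraries each), and Ythdf2 averaged 33.1 ± 4.2 FPM in Ythdf2_KO and 51.5 ± 7.7 FPM in WT. Ythdf3 averaged 23.8 ± 3.6 FPM in Ythdf3_KO and 23.2 ± 8.0 FPM in WT, but 3′ reads can lie outside an edited part and so check nothing. Of the markers of embryonic stem cells at 0 h, Pou5f1 lay at 685 to 902 FPM, Sox2 at 121 to 151 FPM and Nanog at 0 to 3.38 FPM. Of 11 feeder fibroblast markers Lum was listed at 0 in the 0 h libraries, Dcn and Col3a1 reached at most 2.16 and 4.32 FPM, Postn 9.81, Col1a2 19.4, Thy1 24.4 and Col1a1 44.2 FPM. The others were higher, with Acta2 at 55.6 to 141 FPM, Vim at 67.3 to 126, S100a6 at 93.7 to 203 and Sparc at 209 to 304 FPM. Of the endoderm markers Gata4, Gata6, Sox17, Sox7, Foxa2 and Dab2, the highest value was 5.54 FPM, of Dab2.

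At 0 h, before actinomycin D, 46 of the 47 members passed the filter of 5 FPM in at least 2 replicate means and were tested. Cdc6, which helps to load the helicase, lay at 0.699 to 6.48 FPM in the 20 libraries of 0 h and was not tested. Its values were 4.29, 2.77, 6.48 and 3.37 FPM in Triple_KO and 1.23, 2.54, 2.35 and 0.699 FPM in WT. The lowest Triple_KO library, at 2.77 FPM, and the highest WT library, at 2.54 FPM, lay closer than 1 read is worth. In those libraries 1 read is worth 0.554 and 0.845 FPM. Every Triple_KO library thus lay above every WT library, but these are few reads, and whether the groups of Cdc6 differ was not tested. The mean level of the members over all genotypes was 16.7 FPM or more in 42 of the 46 tested, and the other 4, Gins3, Tyms, Ccnd2 and Cdc45, lay at 4.20 to 7.14 FPM, where a library holds few reads. Genes were tested with limma on log2(FPM + 1), with p-values adjusted over all 8697 genes tested at 0 h, and errors of changes are standard errors (n = 2 replicates per genotype).

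Before transcription was blocked, Triple_KO cells had less RNA than WT cells from Pcna, Ccnd3, Mcm3 and Tyms, among others, and more from Fen1. Of the 46 members, 3 were higher in Triple_KO (6.52%, against 14.3% of all genes tested) and 8 lower (17.4%, against 7.65% of all genes), fewer rises and more falls than over all genes. Under TMM scaling 1 was higher and 10 lower, and with scaling to the median gene 1 and 11, counts given here without their shares over all genes. The median change was -0.10 for the members and 0.07 for all genes. In bulk samples fewer cells in S phase and less of an RNA per cell cannot be told apart. The 10 stem cell markers summed to 2332 to 2452 FPM in Triple_KO and 2772 to 2931 FPM in WT at 0 h, and the 11 feeder fibroblast markers to 736 to 818 FPM in Triple_KO and 602 to 698 FPM in WT (the lowest and highest library), with Lum at 0 and Sparc at 209 to 304 FPM over all genotypes. The part of either in these differences was not tested.

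Pcna, the sliding clamp that holds polymerases on DNA, had 62.6, 72.5, 84.2 and 76.1 FPM in Triple_KO libraries and 82.6, 106, 99.5 and 107 FPM in WT libraries. It was lower by a log2 change of -0.41 ± 0.09 (limma, adjusted p = 0.000256), and 1 Triple_KO library lay just above the lowest WT library. Ccnd3, a cyclin D that activates Cdk4, had 224, 246, 241 and 232 FPM in Triple_KO and 294, 297, 280 and 333 FPM in WT, with no overlap and a change of -0.35 ± 0.06 (limma, adjusted p = 2.25e-07). Mcm3, a subunit of the helicase ring, had 166, 156, 159 and 176 FPM in Triple_KO and 208, 206, 193 and 206 FPM in WT, again without overlap (-0.31 ± 0.07, limma adjusted p = 0.000202). The other 5 subunits of the ring did not pass the test and changed by -0.11 to 0.06, although Mcm5 was called lower under both other scalings, as was Gmnn.

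Tyms, the gene of thymidylate synthase, stood apart in every knockout. It had 3.68, 3.88, 1.62 and 3.37 FPM in Triple_KO and 9.25, 17.7, 9.42 and 9.09 FPM in WT, a change of -1.57 ± 0.33 (limma, adjusted p = 6.9e-05). Its values were 5.09 to 7.64 FPM in Ythdf1_KO, 3.61 to 7.18 FPM in Ythdf2_KO and 4.08 to 8.71 FPM in Ythdf3_KO, so that no library of the 4 knockouts reached the lowest WT library. The test called the fall in Ythdf2_KO (-0.99 ± 0.33, limma adjusted p = 0.0427) and not those in Ythdf1_KO (-0.75 ± 0.33, 0.257) or Ythdf3_KO (-0.79 ± 0.33, 0.183). These are low counts, and the Tyms row of the table is a transcript that RefSeq lists as noncoding.

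Fen1, the nuclease that trims the flaps of Okazaki fragments, was the clearest member on the other side. It had 85.3, 99.7, 88.5 and 80.0 FPM in Triple_KO and 66.0, 71.0, 68.3 and 56.6 FPM in WT, with no overlap and a change of 0.43 ± 0.11 (limma, adjusted p = 0.00102). Ccne1, the cyclin E of Cdk2, had 95.7, 84.2, 88.5 and 104 FPM in Triple_KO and 82.6, 68.5, 72.4 and 79.7 FPM in WT (0.29 ± 0.10, limma adjusted p = 0.0186), without overlap. Rfc2, a subunit of the clamp loader, had 101, 97.4, 116 and 91.0 FPM in Triple_KO and 97.4, 75.2, 75.4 and 84.6 FPM in WT, groups that overlapped (0.28 ± 0.10, limma adjusted p = 0.0240). Relative to the median of all genes the 3 rises were smaller, and those of Ccne1 (0.23 and 0.20) and Rfc2 (0.23 and 0.19) missed the threshold when values were scaled by TMM or to the median gene.

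The remaining members lower in Triple_KO were E2f4 (-0.35 ± 0.10), a repressor among the E2F factors, Rpa2 (-0.33 ± 0.10), which coats single-stranded DNA, Rfc1 (-0.32 ± 0.12), the large subunit of the clamp loader, and Lig1 (-0.21 ± 0.06), which seals Okazaki fragments, with limma adjusted p-values of 0.00636 to 0.0338. Of these 4, Rpa2, with 71.1 to 79.4 FPM in Triple_KO and 87.9 to 106 FPM in WT, and E2f4, with 62.1 to 70.3 FPM in Triple_KO and 71.0 to 116 FPM in WT, had libraries without overlap. The calls of Tyms, Ccnd3 and Mcm3 held when any 1 replicate was left out. Leaving out replicate A of Triple_KO ended the calls of Fen1 (0.36, limma adjusted p = 0.0590), Pcna (-0.29, 0.0826), Rpa2 (-0.31, 0.0694), Rfc1 (-0.22, 0.362), Lig1 (-0.21, 0.0617) and Rfc2 (0.31, 0.0851), and leaving out its replicate B ended those of Ccne1 (0.24, 0.182), E2f4 (-0.30, 0.108), Lig1 (-0.20, 0.0768) and Rfc2 (0.26, 0.16). Without replicate A of WT those of Ccne1 (0.28, 0.0723), E2f4 (-0.25, 0.16) and Lig1 (-0.13, 0.263) were lost, and without replicate B of WT those of Ccne1 (0.30, 0.0532), Rfc2 (0.23, 0.157), Rpa2 (-0.26, 0.110) and Rfc1 (-0.20, 0.356).

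**Figure D1:**
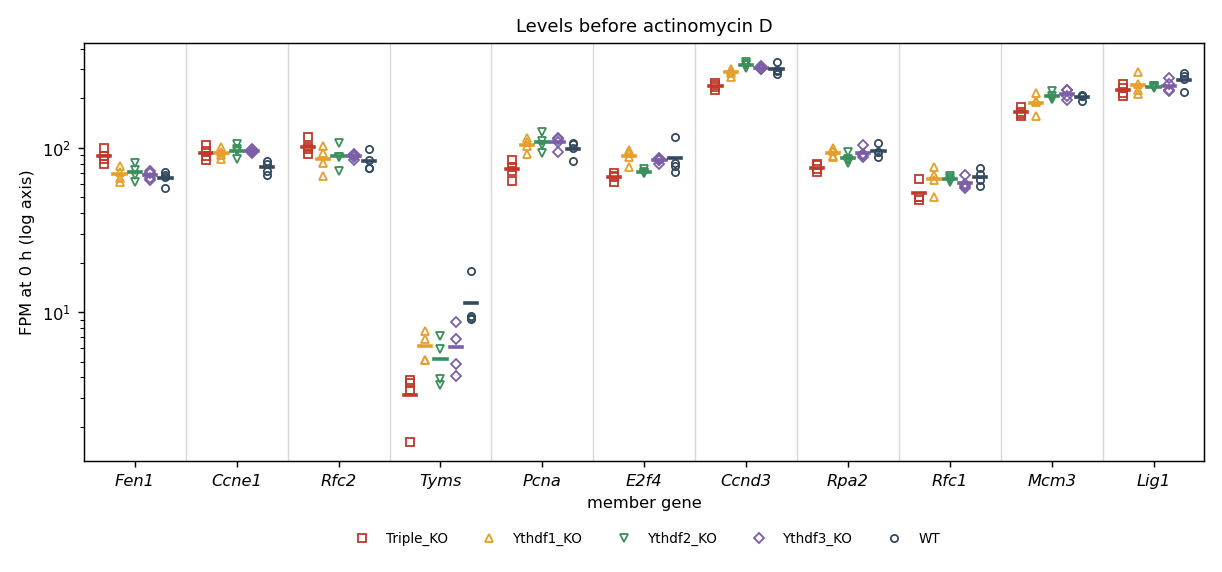
Levels at 0 h in FPM (log axis) of the 11 members that differed between Triple_KO and WT, with 1 point per library (4 per genotype) and bars at the mean. The Triple_KO points of Tyms, Ccnd3, Mcm3, E2f4 and Rpa2 lie below every WT point, those of Fen1 and Ccne1 lie above every WT point, and the rises of Ccne1 and Rfc2 missed the threshold under both other scalings.

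The single knockouts differed less from WT. In Ythdf1_KO limma called 0 members higher (1.72% of all genes) and 0 lower (0.897%) at an adjusted p of 0.05, and edgeR called 0. At an unadjusted p under 0.05 there were 6 members, a count not set against all genes here. In Ythdf2_KO it called 1 higher (3.98% of all genes) and 1 lower (4.22%), and in Ythdf3_KO 2 higher (2.47%) and 0 lower (1.99%), so the counts lay near the background. Ccne1 was higher in Ythdf2_KO (85.3, 98.2, 105 and 95.7 FPM, a change of 0.34 ± 0.10, limma adjusted p = 0.0122) and in Ythdf3_KO (95.8, 92.4, 97.8 and 93.8 FPM, 0.33 ± 0.10, 0.0271) than in WT, whose highest library had 82.6 FPM. In Ythdf1_KO its 84.7 to 101 FPM lay above every WT library too, but the change of 0.28 ± 0.10 was not called (0.0878). Cdk4, the kinase of cyclin D, had 332, 301, 323 and 337 FPM in Ythdf3_KO and 282, 270, 274 and 298 FPM in WT, with no overlap (0.20 ± 0.06, limma adjusted p = 0.0182). These comparisons share the WT libraries, and each call rests on few replicates. Tyms in Ythdf2_KO was lost without replicate A (-1.03, 0.163) or B (-0.96, 0.213) of Ythdf2_KO or replicate A of WT (-0.77, 0.325) and with scaling to the median gene (-0.94, 0.0563), and Ccne1 there without replicate B of Ythdf2_KO (0.27, 0.230) or A of WT (0.33, 0.0627). In Ythdf3_KO Ccne1 was lost without any 1 of the 4 replicates (0.31 to 0.34, 0.0745 to 0.194), and Cdk4 without replicate A (0.23, 0.0625) or B (0.17, 0.253) of Ythdf3_KO or A of WT (0.18, 0.154).

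Tested directly against the mean of the 3 single knockouts, Triple_KO had 4 members higher (15.4% of all genes) and 12 lower (26.1%, against 7.61% of all genes). Under TMM scaling 2 were higher and 19 lower, and with scaling to the median gene 1 and 20, again without the shares over all genes. Pcna was lower by -0.52 (limma, adjusted p = 3.06e-09), with 62.6 to 84.2 FPM in Triple_KO libraries and means of 104, 108 and 107 FPM in Ythdf1_KO, Ythdf2_KO and Ythdf3_KO. Ccnd3 (-0.36, 1.57e-11), Mcm3 (-0.29, 1.11e-05) and Gmnn, the inhibitor of Cdt1 (-0.35, 0.00046), were also lower, and these 4 calls held without any 1 replicate. Tyms, at few reads, was lower by -0.72 ± 0.27 (0.0392). Fen1 was higher (0.35, 0.00102), with means of 88.4 FPM in Triple_KO against 69.0, 70.9 and 67.8 FPM in the single knockouts, a call that was lost without replicate A of Triple_KO (0.28, 0.111). Without replicate A or B of Triple_KO the number of members called was 6 or 7.

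Over 8 h of actinomycin D most members lost RNA relative to the library total, as most genes did, and Triple_KO lost less than the other genotypes. With adjustment over the 9078 genes tested over time, 20 of 46 members were lower at 8 h in Triple_KO (43.5%, against 25.8% of all genes) and 0 higher (3.45% of all genes). Ythdf1_KO had 37 members lower (54.5% of all genes) and 1 higher (1.38%), Ythdf2_KO 42 lower (62.6%) and 0 higher (0.595%) and Ythdf3_KO 41 lower (59.6%) and 0 higher (0.661%). In WT 39 members were lower (84.8%, against 55.2% of all genes) and 0 higher (1.73%). In each genotype a larger share of members than of all genes was called, while the median changes were close: -0.41 for members and -0.39 for all genes in Triple_KO, and -0.76 and -0.81 in WT. Members and all genes were not matched by level in this or the other shares.

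The scale matters here because the listed genes themselves held less of the WT libraries at 8 h. With TMM scaling the median gene of WT changed by -0.19 and that of Triple_KO by -0.06, and with scaling to the median gene by 0.24 and 0.21, so changes near the median are also given relative to it. Members called at 8 h were then 6 higher and 11 lower in Triple_KO, 7 and 18 in Ythdf1_KO, 6 and 13 in Ythdf2_KO, 8 and 13 in Ythdf3_KO and 7 and 14 in WT with TMM scaling. With scaling to the median gene they were 12 higher and 6 lower in Triple_KO, 18 and 8 in Ythdf1_KO, 16 and 10 in Ythdf2_KO, 15 and 9 in Ythdf3_KO and 20 and 9 in WT. The shares of all genes called under these scalings are not given here. These counts therefore do not compare the members with other genes, and the median gene itself rose with scaling to the median gene. Counts by role below are relative to the library total. Summed over the members, Triple_KO had 3840 ± 83.0, 3626 ± 81.0 and 3008 ± 136 FPM at 0, 4 and 8 h, and WT had 4044 ± 61.3, 3441 ± 83.4 and 2575 ± 37.1 FPM (SD over 4, 2 and 4 libraries). At 8 h Triple_KO therefore had the higher sum. As a share of the reads in listed genes the order was the other way: the members held 0.866% ± 0.00473 in Triple_KO and 0.935% ± 0.0122 in WT at 0 h, and 0.732% ± 0.00948 in Triple_KO and 0.777% ± 0.00956 in WT at 8 h.

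In licensing, Cdt1, Orc1, Orc2 and Gmnn changed more over 8 h than any gene of the Mcm2-7 ring in Triple_KO and WT, an order that was not tested, and Orc6 was close to the ring. Of 11 tested members of this role, 10 were lower at 8 h in Triple_KO (25.8% of all genes) and 10 in WT (55.2% of all genes). Cdt1, which brings Mcm2-7 to origins, had 84.6, 96.3, 81.0 and 89.1 FPM at 0 h, 13.2 and 16.7 FPM at 4 h and 11.7, 13.7, 10.2 and 12.4 FPM at 8 h in Triple_KO. Cdt1 in WT had 87.6, 101, 94.8 and 95.1 FPM at 0 h, 19.8 and 13.6 FPM at 4 h and 12.6, 10.0, 9.28 and 12.3 FPM at 8 h. The 2 genotypes overlapped at every time, and all libraries of 4 h lay far below those of 0 h. After 4 h 17.1% of its level at 0 h was left in Triple_KO and 15.1% to 18.1% in the single knockouts and WT, and after 8 h 13.7% and 9.59% to 11.7%. The change over 8 h was -2.78 ± 0.22 in Triple_KO (limma, adjusted p = 4.97e-16), -3.16, -3.27 and -3.05 in Ythdf1_KO, Ythdf2_KO and Ythdf3_KO and -3.00 ± 0.22 in WT (3.13e-18).

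Orc1, the largest subunit of the origin recognition complex, had 39.9, 35.4, 32.4 and 41.9 FPM at 0 h, 11.0 and 18.4 FPM at 4 h and 5.13, 5.05, 5.74 and 7.65 FPM at 8 h in Triple_KO. Orc1 in WT had 38.9, 33.0, 41.2 and 35.7 FPM, then 14.6 and 9.57 FPM, then 11.4, 4.01, 7.59 and 7.92 FPM. It changed by -2.49 ± 0.33 in Triple_KO (limma, adjusted p = 9.65e-09) and by -2.19 ± 0.33 in WT (6.2e-08), and by -2.20 to -3.14 in the single knockouts. Orc2, another subunit of that complex, was lower by -1.29 in Triple_KO and -1.88 in WT. Orc6 was lower by -0.63 ± 0.16 in Triple_KO and -0.74 ± 0.16 in WT. The call of Orc2 in Triple_KO was lost with scaling to the median gene (-0.69, 0.0569), and those of Orc6 were lost under both other scalings, with Orc6 in WT at 0.31 when scaled to the median gene. The members of this complex thus lost different amounts, with Orc1 ahead of Orc2 and Orc2 ahead of Orc6 in both genotypes, an order that was not tested.

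Gmnn had 73.6, 67.0, 65.9 and 68.9 FPM at 0 h, 57.2 and 39.0 FPM at 4 h and between 28.6 and 32.4 FPM at 8 h in Triple_KO. In WT it had 81.4, 83.7, 80.6 and 73.4 FPM at 0 h, 53.4 and 49.4 FPM at 4 h and 34.3, 23.1, 18.6 and 22.9 FPM at 8 h in WT. It changed by -1.16 ± 0.19 in Triple_KO (limma, adjusted p = 1.46e-06) and -1.68 ± 0.19 in WT (1.47e-11).

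Of the 6 genes of the ring, Mcm2 had 129, 149, 138 and 140 FPM at 0 h, 146 and 142 FPM at 4 h and 105, 98.9, 123 and 120 FPM at 8 h in Triple_KO. Mcm2 in WT had 157, 132, 161 and 152 FPM at 0 h, 128 and 150 FPM at 4 h and 102, 108, 115 and 113 FPM at 8 h in WT. Mcm4, Mcm6 and Mcm7 averaged 83.9, 112 and 137 FPM at 8 h in Triple_KO and 79.8, 107 and 122 FPM at 8 h in WT, against 96.7, 161 and 183 FPM at 0 h in Triple_KO and 93.3, 165 and 193 FPM at 0 h in WT. Over 8 h the ring's genes changed by -0.53 to -0.21 in Triple_KO and by -0.77 to -0.22 in WT, and 5 of 6 passed the test in each, all but Mcm4. Relative to the median of all genes these changes were -0.14 to 0.18 in Triple_KO and 0.04 to 0.59 in WT. The sign of the ring's change turned with the scale: scaled to the median gene, the 5 called genes changed by 0.07 to 0.33 in Triple_KO and by 0.28 to 0.60 in WT.

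**Figure D2:**
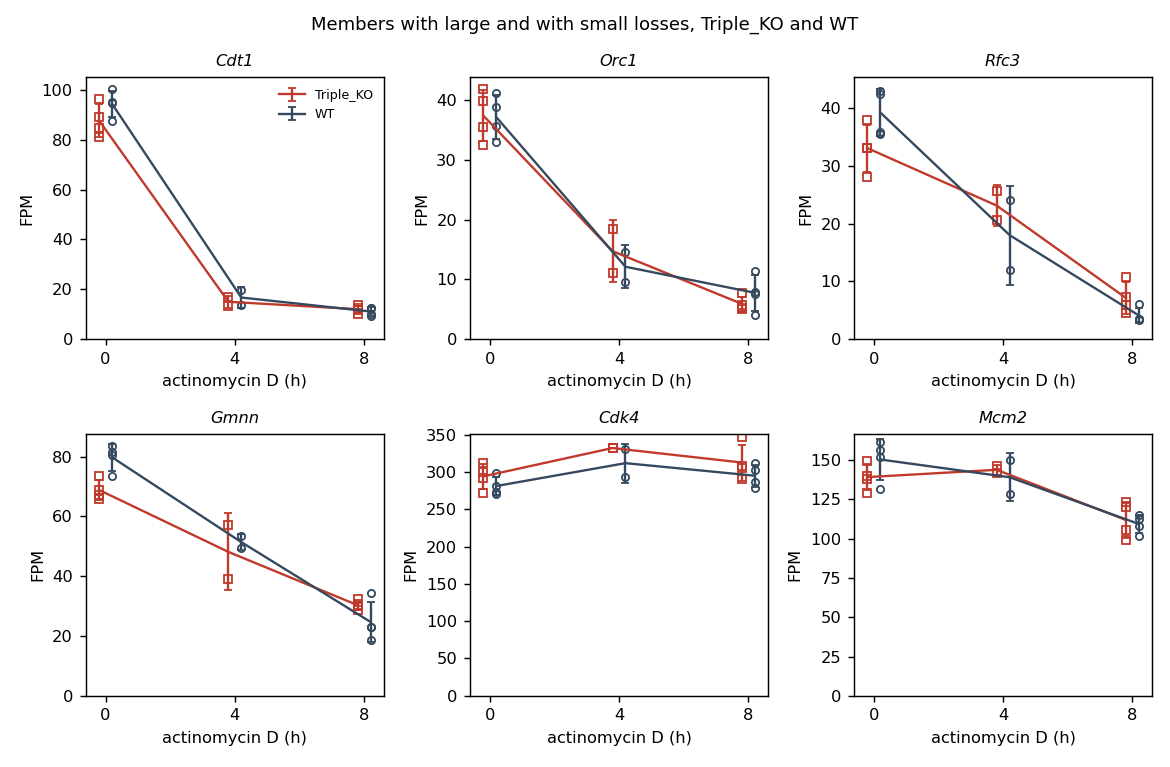
FPM of 6 members at 0, 4 and 8 h of actinomycin D in Triple_KO (squares) and WT (circles), with 1 point per library and lines through means ± SD. Cdt1 was at 13.7% of its 0 h level in Triple_KO and 11.7% in WT after 8 h, while Cdk4 was at 106% and 105%. The falls of Cdt1, Orc1, Rfc3 and Gmnn were called under each of the 3 scalings, and the change of Mcm2 turned positive under both other scalings.

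Among genes that turn the loaded ring into a working helicase, 2 of 6 were lower at 8 h in Triple_KO and 6 of 6 in WT. Over all genes the shares were 25.8% and 55.2%. Mcm10, which is needed to activate the helicase, had 55.8, 52.0, 47.0 and 57.8 FPM at 0 h, 38.9 and 32.3 FPM at 4 h and 22.0, 23.1, 18.5 and 19.4 FPM at 8 h in Triple_KO. Mcm10 in WT had 53.7, 64.2, 57.1 and 44.7 FPM at 0 h, 26.7 and 21.5 FPM at 4 h and 10.3, 10.0, 11.0 and 19.4 FPM at 8 h in WT. It changed by -1.32 ± 0.24 in Triple_KO (limma, adjusted p = 1.36e-05) and -2.07 in WT (4.45e-11), and by -2.27 to -2.31 in the single knockouts. At 8 h 1 WT library, at 19.4 FPM, lay among the Triple_KO libraries and the other 3 below them.

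Gins4, a subunit of GINS, had 52.1, 52.0, 45.4 and 53.0 FPM at 0 h, 48.4 and 56.3 FPM at 4 h and 43.9, 35.4, 40.8 and 29.4 FPM at 8 h in Triple_KO. In WT it had 44.4, 48.2, 41.8 and 31.5 FPM, then 20.7 and 19.9 FPM, then 14.8, 15.0, 10.1 and 8.80 FPM. The genotypes overlapped at 0 h and were apart at 4 h and 8 h. Its change over 8 h was -0.44 ± 0.22 in Triple_KO, which was not called (limma, adjusted p = 0.132), and -1.70 in WT (2.29e-09), and 73.8% of the 0 h level was left in Triple_KO against 29.4% in WT. Gins2, of the same complex, changed by -0.01 ± 0.14 in Triple_KO and -0.52 ± 0.14 in WT (limma, adjusted p = 0.00156), where it was called higher when scaled to the median gene. Cdc45 and Gins3 rest on few reads, with at most 2.28 FPM of Cdc45 in any Triple_KO or WT library at 8 h.

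Of the polymerase genes, 1 of 5 was lower at 8 h in Triple_KO (25.8% of all genes) and 4 of 5 in WT (55.2% of all genes). The median changes were -0.26 in Triple_KO and -0.64 in WT. Pold1 and Pole were called in WT under neither other scaling, and both turned positive there. Pola2, the accessory subunit of polymerase alpha, was lower by -1.06 in Triple_KO (limma, adjusted p = 0.000104), a call that was lost without replicate B of Triple_KO (-0.90, 0.0531), and by -1.20 ± 0.22 in WT (4.55e-06). With scaling to the median gene neither was called (-0.46, 0.0998, in Triple_KO and -0.15, 0.624, in WT). Pola1, the catalytic subunit, changed by -0.48 ± 0.25 in Triple_KO and -0.05 ± 0.25 in WT, and neither passed the test, although in WT it was called higher with scaling to the median gene (1.00, 0.000769). Prim1, the primase, had 21.5, 23.3, 18.4 and 23.1 FPM at 0 h, 13.9 and 20.1 FPM at 4 h and 22.7, 18.0, 23.6 and 15.3 FPM at 8 h in Triple_KO. Prim1 in WT had 16.7, 21.1, 18.8 and 26.6 FPM at 0 h, 13.8 and 14.4 FPM at 4 h and 7.99, 11.0, 11.8 and 15.0 FPM at 8 h in WT, so that 0 h and 8 h overlapped in Triple_KO and not in WT. Its fall in WT was not called with TMM scaling (-0.18, limma adjusted p = 0.643) or with the median gene (0.23, 0.537). The difference between the changes of Prim1 in Triple_KO and WT was not called.

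The 5 subunits of the clamp loader parted widely. Rfc3 had 33.1, 33.2, 28.1 and 38.1 FPM at 0 h, 25.7 and 20.6 FPM at 4 h and 7.32, 10.8, 4.46 and 5.89 FPM at 8 h in Triple_KO. Rfc3 in WT had 42.6, 43.1, 35.9 and 35.7 FPM, then 24.1 and 12.0 FPM, then 3.43, 6.02, 3.38 and 3.52 FPM. It changed by -2.12 ± 0.33 in Triple_KO (limma, adjusted p = 4.69e-07), -2.31, -2.98 and -2.83 in Ythdf1_KO, Ythdf2_KO and Ythdf3_KO and -3.01 ± 0.33 in WT (5.89e-12). Rfc5, which sits in the same complex, had 143, 148, 147 and 153 FPM at 0 h, 164 and 171 FPM at 4 h and 150, 157, 154 and 133 FPM at 8 h in Triple_KO. In WT it had 133, 123, 155 and 152 FPM at 0 h, 158 and 147 FPM at 4 h and 132, 116, 105 and 91.5 FPM at 8 h in WT. Its change was 0.00 ± 0.11 in Triple_KO and -0.34 ± 0.11 in WT (limma, adjusted p = 0.00489), which is 0.47 above the median of all genes in WT and was called higher under both other scalings. Rfc1, Rfc2 and Rfc4 changed by 0.12, 0.10 and -0.41 in Triple_KO, where none of them passed the test, and were lower by -0.41, -0.35 and -1.09 in WT, although WT Rfc2 was called higher under both other scalings and WT Rfc1 when scaled to the median gene. WT Rfc4 was called under neither (-0.45 with TMM, -0.04 with the median gene).

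Of the genes of single-stranded DNA and of Okazaki fragments, Rpa2 lost RNA in both genotypes and Lig1 passed the test in neither. Rpa2 had 71.1, 78.1, 79.4 and 73.7 FPM at 0 h, 45.5 and 46.3 FPM at 4 h and 38.8, 28.1, 40.8 and 38.9 FPM at 8 h in Triple_KO. Rpa2 in WT had 93.7, 87.9, 94.2 and 106 FPM at 0 h, 50.8 and 64.6 FPM at 4 h and 29.7, 13.0, 30.4 and 31.7 FPM at 8 h in WT. It changed by -1.04 ± 0.17 in Triple_KO (limma, adjusted p = 1.15e-06) and -1.90 ± 0.17 in WT (2.04e-15). Its partner Rpa1 changed by 0.10 ± 0.11 in Triple_KO, not called, and by -0.27 ± 0.11 in WT (limma, adjusted p = 0.0382), a direction that turned under both other scalings, where Rpa1 was called higher. Lig1 changed by -0.16 ± 0.08 in Triple_KO and -0.15 ± 0.08 in WT, and neither passed the test. Over the 5 genotypes it was nonetheless called higher in 9 of the 10 fits with other scalings, in WT by 0.52 with TMM and by 0.90 with the median gene. Fen1 had 69.6, 87.3, 93.1 and 69.5 FPM at 8 h in Triple_KO and 24.0, 30.1, 32.9 and 24.6 FPM at 8 h in WT, far apart. Its change was -0.15 ± 0.18 in Triple_KO, not called, and -1.21 ± 0.18 in WT (limma, adjusted p = 3.91e-08). With scaling to the median gene the call in WT was lost (-0.16, 0.498), and Fen1 in Triple_KO was called higher (0.45, 0.0426).

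Of the nucleotide supply genes, Rrm2, the regulated subunit of ribonucleotide reductase, had 142, 136, 146 and 135 FPM at 0 h, 127 and 124 FPM at 4 h and 91.5, 61.3, 117 and 78.3 FPM at 8 h in Triple_KO. Rrm2 in WT had 170, 142, 141 and 149 FPM at 0 h, 99.0 and 123 FPM at 4 h and 68.5, 72.2, 72.6 and 77.4 FPM at 8 h in WT. It was lower by -0.72 ± 0.12 in Triple_KO (limma, adjusted p = 1.47e-06) and -1.04 ± 0.12 in WT (1.83e-11), but with scaling to the median gene neither was called (-0.12 in Triple_KO and 0.01 in WT). Rrm1, the other subunit, changed by -0.36 ± 0.15 in Triple_KO, not called (0.0644), and -0.57 ± 0.15 in WT (0.0013), where it was called higher when scaled to the median gene. Tyms was at 3.14, 3.79 and 2.80 FPM on average at 0, 4 and 8 h in Triple_KO and at 11.4, 4.18 and 3.12 FPM in WT, so the genotypes were apart at 0 h and close at 4 h and 8 h.

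Of the cyclins and kinases, 1 of 7 was lower at 8 h in Triple_KO (25.8% of all genes) and 4 of 7 in WT (55.2% of all genes). Ccne1 had 51.3, 49.8, 47.2 and 44.2 FPM at 8 h in Triple_KO and 32.0, 30.1, 22.8 and 31.7 FPM at 8 h in WT. This was 51.7% of its 0 h level in Triple_KO and 38.4% in WT, and 39.2%, 23.3% and 31.2% in Ythdf1_KO, Ythdf2_KO and Ythdf3_KO. Its falls in Triple_KO (-0.33, 0.151) and WT (-0.31, 0.159) were not called with scaling to the median gene. Cdk4 had 272, 292, 300 and 313 FPM at 0 h, 332 and 332 FPM at 4 h and 308, 306, 347 and 290 FPM at 8 h in Triple_KO. In WT it had 282, 270, 274 and 298 FPM at 0 h, 293 and 330 FPM at 4 h and 287, 279, 303 and 312 FPM at 8 h in WT, and the genotypes overlapped at 0 h and 8 h. It changed by 0.09 ± 0.07 and 0.07 ± 0.07, neither past the threshold, and stood 0.48 above the median gene in Triple_KO and 0.88 above it in WT. Ccnd3 changed by -0.06 ± 0.07 in Triple_KO, not called, and by -0.26 ± 0.07 in WT (limma, adjusted p = 0.00252), a direction that turned under both other scalings.

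Ccnd2, another cyclin D, was the 1 member called higher at 8 h in any genotype relative to the library total. In Ythdf1_KO it had 6.41, 6.25, 5.84 and 5.73 FPM at 0 h, 12.4 and 6.11 FPM at 4 h and 19.8, 7.53, 15.2 and 21.4 FPM at 8 h, all 8 h libraries above all 0 h libraries. It rose by 1.18 ± 0.45 there (limma, adjusted p = 0.0214), which was lost without replicate A (1.49, 0.0566) or B (0.86, 0.279) of Ythdf1_KO. Ccnd2 in WT had 3.08, 2.54, 5.89 and 4.89 FPM at 0 h, 4.30 and 5.58 FPM at 4 h and 2.28, 10.0, 7.59 and 5.28 FPM at 8 h, so 0 h and 8 h overlapped, and the difference between the genotypes' changes was not called.

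Of the transcription factors and the checkpoint kinase, E2f1, E2f4 and Mybl2 were lower at 8 h in both genotypes relative to the library total and Chek1 passed the test in neither. Mybl2, a Myb factor that E2F controls and that in turn drives late cell cycle genes, had 222, 228, 192 and 225 FPM at 0 h, 181 and 189 FPM at 4 h and 135, 131, 154 and 142 FPM at 8 h in Triple_KO. Mybl2 in WT had 200, 196, 194 and 201 FPM, then 139 and 150 FPM, then 82.2, 77.2, 59.9 and 72.2 FPM. The genotypes overlapped at 0 h, where 1 Triple_KO library lay below the WT libraries, and were apart at 4 h and 8 h. E2f1, an activating E2F, changed by -0.57 ± 0.23 in Triple_KO (limma, adjusted p = 0.0475) and -1.09 ± 0.23 in WT (4.38e-05), and E2f4 by -0.56 ± 0.15 in Triple_KO (0.00373) and -0.88 ± 0.15 in WT (2.08e-06). Neither E2f1 nor E2f4 was called in Triple_KO or WT under TMM scaling or with the median gene, where E2f1 in Triple_KO (0.03) and E2f4 in Triple_KO (0.04) and WT (0.17) turned positive. With the median gene Mybl2 was not called in Triple_KO (-0.02, 0.891), and Chek1 was called higher in WT (0.61, 0.0259).

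Over 15 fits, the 5 genotypes under each of 3 scalings, 6 members were called lower at 8 h in every fit: Cdt1, Orc1, Rfc3, Mcm10, Gmnn and Rpa2. Orc2 and Mybl2 were called lower in 13 of 15 and Ccne1 in 12. Against these, 3 members, Cdk4, Ccnd3 and Rpa1, were called higher in all 10 fits with TMM scaling or scaling to the median gene, and in 0 of the 5 fits relative to the library total. The same counts were not made over all genes, so they name members and do not compare the list with other genes.

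**Figure D3:**
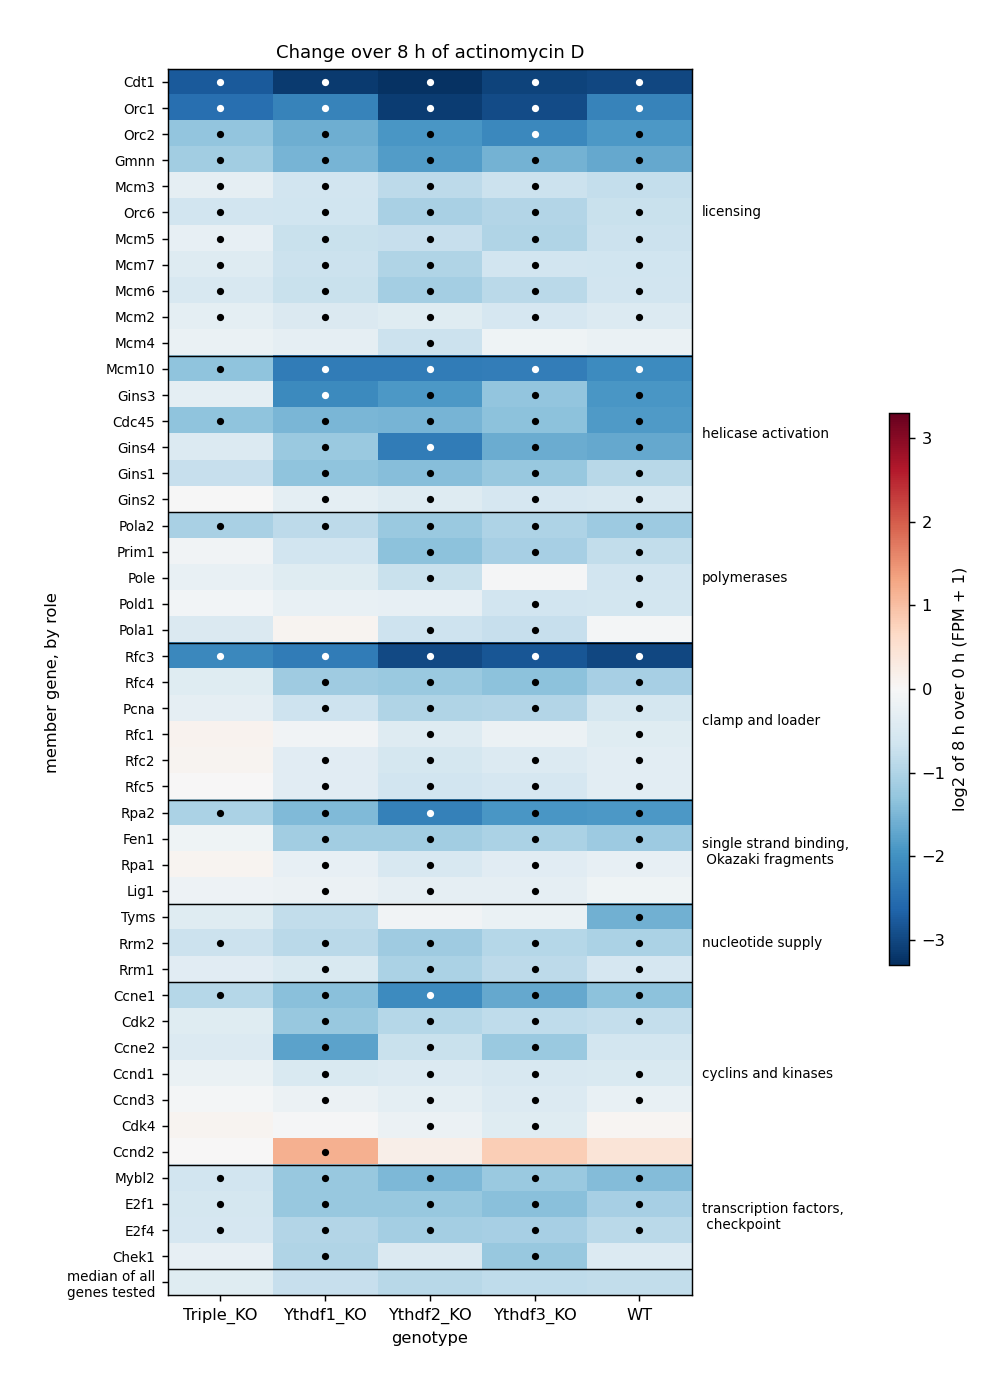
Log2 change of the 46 tested members at 8 h of actinomycin D over 0 h (FPM + 1, relative to the library total), by role and genotype, with the median of all genes tested in the bottom row. Dots mark limma adjusted p under 0.05. Cdt1, Orc1 and Rfc3 are the darkest rows in Triple_KO, Ythdf2_KO, Ythdf3_KO and WT, while Cdt1 (-3.16), Mcm10 (-2.31) and Rfc3 (-2.31) are in Ythdf1_KO, and the Triple_KO column is paler than the others, with a median gene at -0.39 against -0.81 in WT. Under both other scalings the rows of Cdk4, Ccnd3 and Rpa1 are positive in all genotypes, and scaled to the median gene so are those of Mcm2, Mcm3, Mcm5, Mcm6 and Mcm7 in Triple_KO and WT.

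The difference between the changes of Triple_KO and WT over 8 h was tested itself. It was positive, that is less loss in Triple_KO, in 42 of 46 members relative to the library total. The median of all genes was positive there too. With scaling to the median gene the difference turned negative in many members, Cdt1 and Mcm2 among them. Relative to the library total limma called 6 higher (13% of the members, against 7.22% of all genes) and 0 lower (0.022% of all genes). The median difference was 0.37 for the members and 0.37 for all genes tested. The 6 were Gins4 (1.26 ± 0.32, limma adjusted p = 0.00582), Fen1 (1.06 ± 0.25, 0.00318), Rpa2 (0.86 ± 0.23, 0.0120), Mybl2 (0.81 ± 0.14, 2.73e-05), Mcm3 (0.47 ± 0.14, 0.0236) and Mcm5 (0.45 ± 0.13, 0.0204). Relative to the median of all genes these differences were 0.89, 0.69, 0.50, 0.44, 0.10 and 0.08, so that those of Mcm3 and Mcm5 were close to the shift of all genes. Cdt1 (0.22 ± 0.32) and Orc1 (-0.29 ± 0.46) gave no call.

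The 6 calls depended on the scale. Under TMM scaling Mybl2 alone was called (0.48, limma adjusted p = 0.0461), with Gins4 at 0.95 (0.128), Fen1 at 0.73 (0.147) and Rpa2 at 0.54 (0.363). With scaling to the median gene none of the 6 was called, the difference of Mcm5 turned to -0.0030, and Cdk4 (-0.43) and Lig1 (-0.46) were called lower in place of them. Relative to the library total Mybl2 was called without any 1 replicate. Fen1 was lost without replicate B of Triple_KO (0.97, 0.111), Gins4 without replicate A (1.21, 0.112) or B (1.31, 0.0779) of Triple_KO or B of WT (1.13, 0.0702), and Rpa2 without replicate A (0.98, 0.0642) or B (0.75, 0.216) of Triple_KO or A of WT (0.62, 0.198). Mcm3 (0.44 to 0.50, 0.0857 to 0.190) and Mcm5 (0.42 to 0.48, 0.0899 to 0.225) were lost without any 1 of the 4 replicates.

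**Figure D4:**
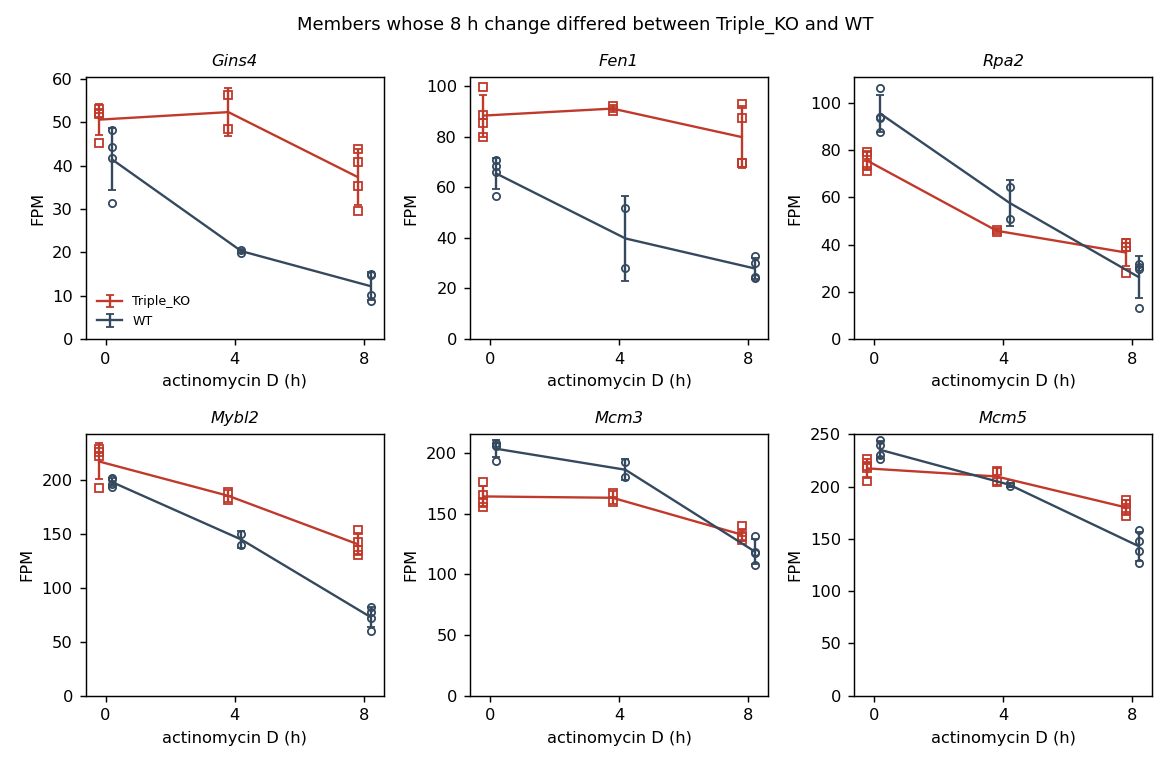
FPM at 0, 4 and 8 h of actinomycin D in Triple_KO (squares) and WT (circles) of the 6 members whose change over 8 h differed between these genotypes relative to the library total, with 1 point per library and lines through means ± SD. At 8 h the Triple_KO libraries of Gins4, Fen1, Mybl2 and Mcm5 lie above all WT libraries. Under TMM scaling Mybl2 alone was called, and with scaling to the median gene none was and that of Mcm5 turned to -0.0030.

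The single knockouts did not show this pattern against WT. Limma called 0 of 46 members in Ythdf1_KO (0.0441% of all genes higher, 0% lower), 0 in Ythdf2_KO (0% higher, 0.176% lower) and 1 lower and 0 higher in Ythdf3_KO (0.33% lower, 0% higher). At an unadjusted p under 0.05 there were 1, 9 and 5 members, counts not set against all genes here, and edgeR called 0, 0 and 1. The 1 called by limma was Cdk4, with 332, 301, 323 and 337 FPM at 0 h, 349 and 339 FPM at 4 h and 257, 226, 253 and 237 FPM at 8 h in Ythdf3_KO, where all 8 h libraries lay below all 0 h libraries. Its change was -0.41 ± 0.07 in Ythdf3_KO and 0.07 ± 0.07 in WT, a difference of -0.48 ± 0.10 (limma, adjusted p = 0.00590), although the change in Ythdf3_KO itself turned positive under both other scalings. The call was lost under TMM scaling (-0.41, 0.0792), with scaling to the median gene (-0.45, 0.112) and without any 1 of the 4 replicates (-0.51 to -0.45, 0.0724 to 0.168).

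Against the mean of the 3 single knockouts, the change over 8 h in Triple_KO was higher in 21 of 46 members (45.7%, against 17% of all genes) and lower in 0 (0.0441% of all genes), with medians of 0.46 for members and 0.42 for all genes. Gins4 led (1.28, limma adjusted p = 0.000156), with 73.8% of its 0 h level left in Triple_KO against 41.4%, 18.9% and 31.1% in Ythdf1_KO, Ythdf2_KO and Ythdf3_KO. Fen1 differed by 0.96 (0.000335), with 90.4% left in Triple_KO against 44.6%, 44.3% and 49.1% in Ythdf1_KO, Ythdf2_KO and Ythdf3_KO. Mcm10 (0.98, 0.00809), Prim1 (0.91, 0.0456), Rfc4 (0.85, 0.0354), Rpa2 (0.83, 0.00094), Ccne1 (0.78, 0.00267) and E2f1 (0.72, 0.0475) were called too, and the other 13 differed by 0.27 to 0.70. Under TMM scaling Gins4 alone was called (0.93, 0.0373), and with scaling to the median gene only Lig1 was, as lower (-0.38). Leaving out replicate A or B of Triple_KO left 6 members called relative to the library total. Gins4 was called without any 1 replicate, Fen1 and Rpa2 were lost without replicate B of Triple_KO (0.88, 0.0544, and 0.72, 0.0911), Ccne1 without its replicate A (0.67, 0.145), and Mcm10 without its A (0.88, 0.182) or B (1.07, 0.0818). Prim1 (0.92, 0.255, and 0.90, 0.270), Rfc4 (0.68, 0.372, and 1.01, 0.132) and E2f1 (0.40, 0.572, and 1.03, 0.0751) were also lost without replicate A or B of Triple_KO, and without several replicates of the single knockouts. Mcm10 (0.0642), Prim1 (0.0990) and Rfc4 (0.0624) missed the threshold with no filter on low values.

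After 4 h fewer members had changed. In Triple_KO 3 were lower (6.52%, against 7.67% of all genes) and 0 higher (3.26%), and in WT 16 were lower (34.8%, against 27.3% of all genes) and 0 higher (3.61%). In Triple_KO edgeR called 9 lower and 0 higher, counts given here without their shares over all genes. Under TMM scaling 2 were higher and 3 lower in Triple_KO and 8 and 5 in WT, and with scaling to the median gene 8 and 2 in Triple_KO and 17 and 2 in WT, where the 2 lower were Cdt1 and Orc1. Shares over all genes under these scalings are not given here, so these counts do not compare the members with other genes. Cdt1 had changed by -2.48 ± 0.22 in Triple_KO (limma, adjusted p = 1.05e-13) and -2.45 ± 0.22 in WT (4.35e-14), most of its 8 h change. Orc1 had changed by -1.32 in Triple_KO (0.00337) and -1.57 in WT (0.000129), calls that were lost without replicate A of Triple_KO (-0.96, 0.392) and without replicate B of WT (-1.24, 0.0561). Rpa2 was the third in Triple_KO (-0.71, 0.00192), lost without replicate A (-0.71, 0.115) or B (-0.70, 0.105) and with scaling to the median gene (-0.45, 0.0504). In WT Rfc3 (-1.15, 0.00434), Mcm10 (-1.15, 0.000115), Gins4 (-0.98, 0.000437), Ccne1 (-0.97, 7.26e-06) and Fen1 (-0.76, 0.000515) were also lower at 4 h, of which Rfc3 (-0.80, 0.218) and Fen1 (-0.40, 0.225) were lost without replicate B of WT. With scaling to the median gene none of these 5 was called (-0.59, -0.59, -0.42, -0.41 and -0.20 in the same order), and under TMM scaling Rfc3 (-0.82, 0.0540) and Fen1 (-0.43, 0.0615) were not. The difference between the genotypes at 4 h was not tested.

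The 3′ UTRs of the members were searched for letters linked to mRNA turnover, in GENCODE M21 transcripts and on the transcript strand, a choice made with earlier results known. TGTANATA, the Pumilio letters, stood in 9 of 47 members (19.1%) and in 22.5% of the genes tested over time, and TATTTAT, an AU-rich core that contains ATTTA, in 9 members (19.1%) and 25.0% of genes. ATTTA itself stood in 31 members (66.0%) and 63.6% of genes. The windows below show TGTANATA in capitals in Cdt1, Orc1 and Gmnn, which were called lower at 8 h in all 15 fits. Those of Mcm4 and Pcna follow, called lower in 1 and 4 of the 15 fits and higher in 7 and 1. Rfc3, Mcm10 and Rpa2 were also called lower in all 15 fits, and TGTANATA was not found in their 3′ UTRs. The median change of WT over 8 h was -0.59 over the 9 tested members with TGTANATA and -0.77 over the 37 without, and for TATTTAT -0.75 over 8 and -0.76 over 38. A match is a description, and these are medians with no test. An internal exon of at least 400 nt was found in 1 of 47 members, Mybl2 (2.13%), and in 18.5% of genes.
Cdt1: attgggccttcTGTAAATAtgtgaagtgtg
Orc1: gtaacatactaTGTATATAaagatatgtat
Gmnn: aatccgttttaTGTAAATAgcattttcatt
Mcm4: attaaatcttgTGTAAATAttacaataaat
Pcna: aaaataaaataTGTAGATAtcttctgtaaa

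Other genes of replication and of the G1/S transition, a list of 70 written from general knowledge, were counted alongside. In Triple_KO 0 of 64 tested were higher and 33 lower at 8 h (51.6%, against 25.8% of all genes, median -0.71), and in WT 0 and 51 (79.7%, against 55.2%, median -1.10), both medians below those of the members. The difference between the genotypes' changes was called higher in 5 (7.81%, against 7.22% of all genes) and lower in 0, with a median of 0.48. At 0 h 9 of 63 were higher (14.3%, as over all genes) and 7 lower (11.1%, against 7.65% of all genes) in Triple_KO than in WT. Of 39 tested mitosis genes, 25 were lower (64.1%) and 0 higher at 8 h in Triple_KO (median -0.82), and 35 (89.7%) and 0 in WT, with 3 differences called higher (7.69%) and 0 lower.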

How the data were processed

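Levels of polyadenylated RNA were measured by 3′ end sequencing in 50 libraries of mouse embryonic stem cells. The authors deposited FPM, the same unit as RPM: reads per RefSeq transcript scaled to the reads of the library, without length correction. The submitters' processing notes name Bowtie2, CASAVA 1.8.2 and mm10, and the table's name holds ESAT, a counter of 3′ end reads. Its filter, the use of strand and the annotation version are not given in the sources used here, so reads of overlapping genes and close paralogs cannot be told apart. In each library 100% of the values above 0 were whole reads within 0.1 read.

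Of 22338 transcripts, 21725 were named through the RefSeq table of GRCm38.p6 and 124 through GENCODE M21, and 489 stayed unnamed. Rows of a gene with identical values (2169) were dropped and other rows of a gene were summed. Duplicate libraries were averaged on log2(FPM + 1), which understates the change of low genes. A gene was tested where 2 or more replicate means reached 5 FPM, with limma 3.58 (R 4.3, mean-variance trend) on 10 replicate means at 0 h and 30 over time, and p-values were Benjamini-Hochberg adjusted over all genes at 0.05. All 17 comparisons use the library total as their scale. The labels name no spike-in. Steps were tested on simulated data. Alternatives were a pseudocount of 0.5, no filter, TMM scaling, scaling to the median gene, a replicate term, edgeR 4.0 on recovered reads and leaving out each replicate. A lone replicate was then assumed to vary like other groups. Values and errors in FPM are means and SD over libraries.

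The members, the gene lists and the sequence searches were chosen with earlier results of these data known. In each comparison up to 8 called members per direction with the largest changes were named, if both replicates moved the same way and a group reached 10 FPM, besides the 3 smallest 8 h changes in Triple_KO and WT and the Mcm2-7 genes. Prim1, Rfc1, Rfc4, Rpa1, Rrm1, Rrm2, Orc6, Cdc6, Ccnd3 and Tyms over time, and the other members named for their role, were added after their values were seen. The chi-square between libraries, per degree of freedom, was about the same between A and B (median 1.37, 45 pairs) as between duplicates (1.41, 20 pairs), and no pair agreed within sampling noise.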

Additional observations from a re-analysis of the deposited data

Results flagged for a closer look

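In 152 groups of 4 libraries (33 members in Triple_KO and WT at 0 h and 8 h, and the summed levels of all genotypes), 12 libraries stood far from the other 3 of their group. Chance flags about 1 in 20 groups. Of the 12, 5 were the second duplicate of replicate A of WT at 8 h: E2f1 at 8.03 FPM against 15.0 to 16.0 FPM in the others, Pcna at 50.2 against 70.4 to 74.3, Rpa2 at 13.0 against 29.7 to 31.7, Rfc3 at 6.02 against 3.38 to 3.52 and Tyms at 5.02 against 2.28 to 2.64. In the other duplicate pair of WT at 8 h, Mcm10 had 19.4 FPM in one library against 10.0 to 11.0 FPM in the others. In Triple_KO at 8 h Rpa2 had 28.1 FPM in one library against 38.8 to 40.8 FPM. In Triple_KO at 0 h the first duplicate of replicate B had Gins4 at 45.4 FPM against 52.0 to 53.0 FPM, Mybl2 at 192 against 222 to 228 and Pola2 at 49.7 against 32.1 to 34.3, and the second had Rfc1 at 64.5 against 48.2 to 50.3. In WT at 0 h Tyms had 17.7 FPM in one library against 9.09 to 9.42 FPM.

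The change over 8 h differed between genotypes for 28 values in limma's genotype by time test. Between Triple_KO and WT these were Gins4 1.26, Fen1 1.06, Rpa2 0.86, Mybl2 0.81, Mcm3 0.47 and Mcm5 0.45, and between Ythdf3_KO and WT Cdk4 -0.48. Between Triple_KO and the mean of the single knockouts they were Gins4 1.28, Mcm10 0.98, Fen1 0.96, Prim1 0.91, Rfc4 0.85, Rpa2 0.83, Ccne1 0.78, E2f1 0.72, Mybl2 0.70, Cdk2 0.61, Pcna 0.57, Rfc2 0.57, Mcm5 0.56, Rfc5 0.53, E2f4 0.50, Rpa1 0.49, Mcm3 0.43, Mcm6 0.38, Mcm7 0.36, Cdk4 0.30 and Ccnd3 0.27. The shift of all genes in the same direction was 0.37 against WT and 0.42 against the single knockouts.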

How the results depend on the processing

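Scaling changed most. Under TMM scaling members called at 8 h were 25 in Ythdf1_KO (7 higher, 18 lower), 19 in Ythdf2_KO (6, 13), 21 in Ythdf3_KO (8, 13) and 21 in WT (7, 14), with 5 called at 4 h in Triple_KO (2, 3). The differences in 8 h change called were 1 between Triple_KO and WT, 0 between Ythdf3_KO and WT and 1 between Triple_KO and the single knockouts. Scaled to the median gene these counts were 18 in Triple_KO (12, 6), and Ythdf1_KO had 26 (18, 8), Ythdf2_KO 26 (16, 10), Ythdf3_KO 24 (15, 9) and WT 29 (20, 9). At 4 h they were 10 in Triple_KO (8, 2) and 19 in WT (17, 2), and the differences were 2 (0, 2), 0 and 1 (0, 1). Of the members called lower at 8 h, 3 in Triple_KO and 14 in WT had a positive change under TMM scaling, and 7 and 22 with scaling to the median gene. In the Mcm2-7 ring these were under TMM scaling Mcm2 0.025, Mcm3 0.037 and Mcm5 0.072 in Triple_KO and Mcm2 0.22, Mcm6 0.046 and Mcm7 0.014 in WT. Scaled to the median gene they were Mcm2 0.28, Mcm3 0.30, Mcm5 0.33, Mcm6 0.071 and Mcm7 0.19 in Triple_KO, Mcm2 0.60, Mcm3 0.28, Mcm5 0.33, Mcm6 0.42 and Mcm7 0.39 in WT, and the difference of Mcm5 between Triple_KO and WT turned (-0.0030). The cause was not tested.

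With a pseudocount of 0.5, 1 member was called in Ythdf2_KO at 0 h. With no filter, where more genes are tested, 0 were called in Ythdf2_KO and 0 in Ythdf3_KO at 0 h, 7 between Triple_KO and the single knockouts at 0 h, and 3 between Triple_KO and WT and 0 between Ythdf3_KO and WT in 8 h change. The edgeR test called 9 in Triple_KO at 4 h. Leaving out 1 replicate, calls at 0 h were 5 to 9 in Triple_KO against WT, 6 to 16 against the single knockouts, 0 to 2 in Ythdf2_KO and 0 to 1 in Ythdf3_KO. At 8 h they were 12 to 13 in Triple_KO and 28 to 29 in WT, and at 4 h 1 to 2 in Triple_KO and 7 to 12 in WT. Calls of the 8 h difference were 1 to 4 between Triple_KO and WT, 6 to 21 between Triple_KO and the single knockouts and 0 to 0 between Ythdf3_KO and WT.

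Letters A and B did not pair the samples: over 10 pairs of genotypes at 0 h their deviations correlated at -0.0226 to 0.0195. With the replicate block the 6 calls between Triple_KO and WT and the other 16 counts stayed within 1.5 times. Depth limits Cdc6, Cdc45, Gins3, Tyms and Ccnd2 most.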
